A study of Mus musculus with 6 samples.

Results

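Of the 357 solute carrier genes in the deposited FPKM table, 114 were taken as expressed in monocytes or microglia. They were chosen by level alone: the symbol begins with Slc or Slco followed by a number, and the FPKM, the fragment number scaled by exon length and by mapped reads, is at least 1 in at least 2 of the 6 RNA-Seq libraries. Another 243 solute carrier genes were below this minimum, 55 of them at 0 in all 6 libraries. Of all 35237 genes in the table, 8467 met the same minimum. The libraries came from C57BL/6 mice at 6 weeks of age, 3 from bone marrow monocytes (BMDM, sorted as CD11b+ CD45high CD115+ Ly6G- cells) and 3 from brainstem microglia (BSM, sorted as CD11b+ CD45low CD115low Ly6G- cells). No animal carried a transgene or received a treatment according to the labels, and the study set out to find transcripts that tell infiltrating monocytes from resident microglia. Each library is a pool of cells from several mice rather than 1 animal, replicate 1 came from male and replicates 2 and 3 from female mice in both cell types by the labels, and tissue of origin and cell type cannot be told apart.

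Solute carriers are membrane proteins that move sugars, amino acids, ions, metals, nucleosides, vitamins and organic anions across the plasma membrane and the membranes of organelles, by facilitated diffusion or by coupling to ion gradients. The Slc25 family sits mainly in the inner mitochondrial membrane, the Slc35 family carries nucleotide sugars into the Golgi and endoplasmic reticulum for glycosylation, and the Slco family carries large organic anions such as steroid conjugates. Macrophages and microglia are known for lysosomal carriers that export the products of digestion, for iron export through ferroportin (Slc40a1), and, in microglia, for the fructose carrier Slc2a5.

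The 8 monocyte markers summed to 596 to 652 FPKM in the BMDM libraries and 0.803 to 1.58 in the BSM libraries. The 8 microglia markers summed to 18 to 21 and 1112 to 1278 FPKM, so the markers followed the labels. Over all genes the FPKM summed to 163199 to 194184 in BMDM and 68288 to 75021 in BSM, and the median log2 fold change of the 8467 genes, BMDM over BSM, was 0.66 as deposited and -0.02 after quantile normalization. Counts of changes are therefore given under both scalings. BSM replicate 1 stood apart from the other BSM libraries. Its RNA was the lowest of the 6 in integrity and concentration in the study's own quality measurements, and 776 of the 8467 genes were at 0 in it, against 70 to 153 in each of the other libraries. By the labels BSM replicate 1 was also the only BSM library from male mice, so sex and RNA quality cannot be told apart within BSM. The part of either in the values below was not tested. The solute carriers differed between BSM replicates 1 and 2 by a median of 0.60 (absolute log2 difference of FPKM + 1), between replicates 1 and 3 by 0.64, and between replicates 2 and 3 by 0.14, against 0.20 to 0.35 among the BMDM pairs.

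Summed over the 114 genes, the solute carriers reached 425, 587 and 483 FPKM in the BMDM libraries and 513, 518 and 479 FPKM in the BSM libraries. The summed level was 499 ± 81.8 FPKM in BMDM and 503 ± 21.2 in BSM (SD, n = 3 as throughout), and the ranges overlapped as deposited. Since the FPKM of all genes summed to less in BSM, their share of that sum differed. It was 0.261, 0.302 and 0.279% in the BMDM libraries and 0.741, 0.690 and 0.701% in the BSM libraries, without overlap. Among the 10 highest in BMDM were Slc44a2, Slc25a4, Slc38a2, Slc6a6, Slc29a3, Slc43a3, Slc25a5, Slc25a3 and Slc25a46, and the 10 had means from 32.8 down to 12.2 FPKM. Among the 10 highest in BSM were Slc29a3, Slco2b1, Slc15a3, Slc44a2, Slc6a6, Slc9a9, Slc25a36, Slc25a37 and Slc12a2, and the 10 had means from 53.0 down to 11.2 FPKM. Most solute carriers were low: 76 of the 114 had means under 5 FPKM in both cell types, and 14 in BMDM and 11 in BSM had a mean of at least 10 FPKM.

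Tested with limma on log2(FPKM + 1) across all 8467 genes, 32 of the 114 solute carriers (28.1%) were higher in BMDM and 18 (15.8%) were higher in BSM at an adjusted p-value under 0.05, while 64 did not pass. Of all genes tested, 42.0% were higher in BMDM and 8.70% in BSM. After quantile normalization 13 solute carriers (11.4%) were higher in BMDM and 31 (27.2%) in BSM, against 20.4% and 18.4% of all genes. The median log2 fold change of the solute carriers was 0.29 as deposited and -0.40 after quantile normalization. All 18 that were higher in BSM as deposited were also higher in BSM after quantile normalization, while 19 of the 32 that were higher in BMDM did not pass after it. The other 13 calls in BSM after quantile normalization had the same sign as deposited. Without BSM replicate 1 the counts were 35 and 23 in the same order, and without BMDM replicate 2 they were 25 and 20. Of all 8467 genes, 3883 and 983 passed without BSM replicate 1, and 2800 and 612 without BMDM replicate 2.

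**Figure D1:**
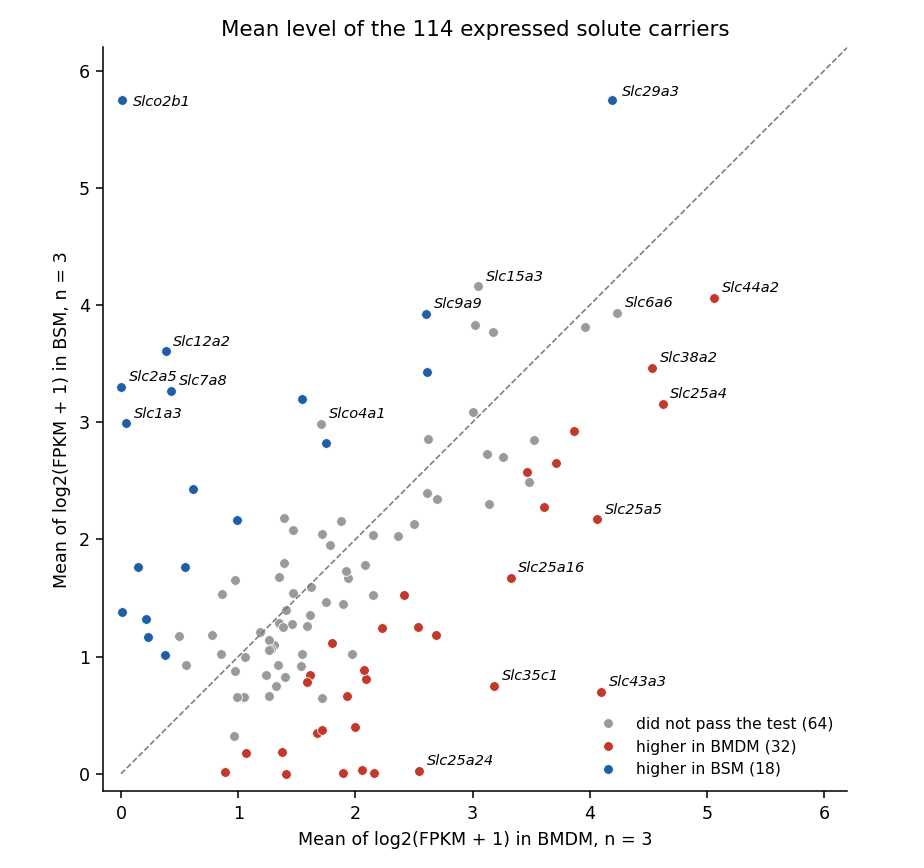
Each point is 1 of the 114 solute carriers, placed by its mean log2(FPKM + 1) over the 3 BMDM libraries (horizontal axis) and the 3 BSM libraries (vertical axis), with the line of equal level dashed and colours giving the limma result as deposited. The 18 carriers higher in BSM lie above the line, with Slco2b1 at the far left, and the 32 higher in BMDM lie below it, with Slc43a3, Slc35c1 and Slc25a24 farthest to the lower right.

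The rule itself bears on these counts, because a gene that reached 1 FPKM in 1 cell type alone had to be lower in the other. The minimum was met in at least 2 libraries of each cell type by 75 solute carriers, in BMDM alone by 22, in BSM alone by 16, and in 1 library of each by 1. Among the 75 present in both cell types, 18 were higher in BMDM and 6 in BSM as deposited, and 6 and 17 after quantile normalization. The share of calls among all genes present in both cell types was not counted, so these counts have no share to stand beside. The FPKM of the 3 BMDM libraries lay above those of the 3 BSM libraries for 43 solute carriers, and below them for 23, against 52.4% and 11.1% of all genes tested.

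The second deposited table, an ALEXA-Seq expression signal made from the same libraries, is not an independent measurement of the cells but a separate count of the same reads. Of the 102 solute carriers tested in it, 20 were higher in BMDM and 19 in BSM, against 32.1% and 10.4% of the genes tested there. All 18 carriers higher in BSM by FPKM were higher in BSM by ALEXA-Seq, and 19 of the 29 testable carriers higher in BMDM passed there in the same direction. In FPKM and ALEXA-Seq, each with and without quantile normalization, 12 solute carriers were higher in BMDM and 18 in BSM in all 4 fits, against 18.6% and 8.68% of the genes tested in both tables. These 12 were Slc43a3, Slc25a24, Slc35c1, Slc28a2, Slc22a15, Slc25a5, Slc25a16, Slc9a3r1, Slc25a12, Slco3a1, Slc16a10 and Slc43a2. Of the 17 FPKM values of solute carriers at exactly 0, 16 had a single matching ALEXA-Seq entry, and 15 of those were also at 0.

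**Figure D2:**
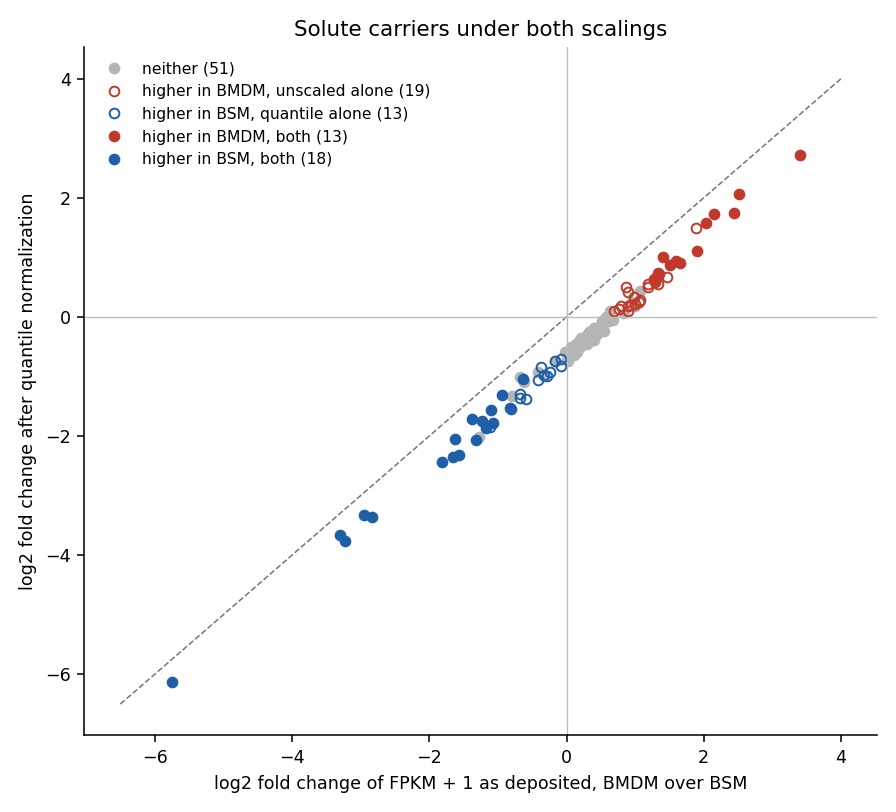
Log2 fold change of FPKM + 1, BMDM over BSM, for each of the 114 solute carriers as deposited (horizontal axis) and after quantile normalization (vertical axis), with equal values dashed. The points lie below the dashed line, filled points passed the test under both scalings (13 higher in BMDM, 18 higher in BSM), and open points passed under 1 of them (19 and 13).

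The start regions of 4 carriers, 2 for each direction, are shown because these genes passed in all 4 fits and were nearly silent in 1 cell type. Slco2b1, an organic anion carrier for steroid conjugates and thyroid hormones, and Slc2a5 were near 0 in BMDM, and Slc25a24, the mitochondrial carrier of ATP-magnesium and phosphate, and Slc22a15, an organic zwitterion carrier, were near 0 in BSM. The 250 bases before the annotated RefSeq start of each, in GRCm38.p6, read 5′ to 3′ on the strand of the gene, with capitals marking the letters GAGGAAGT, which occur in sites bound by the myeloid factor PU.1, or their reverse complement:
Slco2b1 (chr7:99711341-99711590, minus strand): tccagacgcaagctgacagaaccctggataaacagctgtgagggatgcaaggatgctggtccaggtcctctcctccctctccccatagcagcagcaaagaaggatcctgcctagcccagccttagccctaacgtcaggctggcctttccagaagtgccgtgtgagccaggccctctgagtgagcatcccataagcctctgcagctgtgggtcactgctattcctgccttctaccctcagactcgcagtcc
Slc2a5 (chr4:150119094-150119343, plus strand): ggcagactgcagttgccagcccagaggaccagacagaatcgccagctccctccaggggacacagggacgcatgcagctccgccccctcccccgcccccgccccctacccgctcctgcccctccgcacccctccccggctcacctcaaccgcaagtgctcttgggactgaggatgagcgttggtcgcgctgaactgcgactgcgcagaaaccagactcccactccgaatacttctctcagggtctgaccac
Slc25a24 (chr3:109122899-109123148, plus strand): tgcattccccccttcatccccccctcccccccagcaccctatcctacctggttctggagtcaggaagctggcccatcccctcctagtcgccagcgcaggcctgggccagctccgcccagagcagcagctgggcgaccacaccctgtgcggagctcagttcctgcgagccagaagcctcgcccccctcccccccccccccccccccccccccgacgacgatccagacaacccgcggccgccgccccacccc
Slc22a15 (chr3:101924454-101924703, minus strand): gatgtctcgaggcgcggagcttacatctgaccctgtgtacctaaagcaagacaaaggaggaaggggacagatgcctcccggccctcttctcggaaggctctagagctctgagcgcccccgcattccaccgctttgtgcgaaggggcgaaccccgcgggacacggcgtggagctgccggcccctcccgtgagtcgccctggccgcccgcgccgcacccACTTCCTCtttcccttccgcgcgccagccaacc
The Slco2b1 window is the first of 3 that RefSeq lists for the gene. The windows held 4 CpG dinucleotides in Slco2b1, 15 in Slc2a5, 14 in Slc25a24 and 24 in Slc22a15. RefSeq windows matched 88 of the 114 solute carriers, 114 windows in all, with a median of 14 CpG against 6 over all 32851 windows. Those 32851 were not chosen by level and include genes below the minimum. A difference between them and the solute carriers, here or in the shares below, cannot be told apart from that choice. The median was 14 for the windows of carriers higher in BMDM as deposited, 11 for those higher in BSM and 15 for those that did not pass. In these 250 bases GAGGAAGT on either strand was found in 2 of the 114 windows (1.75%), those of Slc22a15 and of the copper carrier Slc31a1, and in 2.44% of all windows. CACGTG, which reads the same on both strands and is the E-box bound by lysosomal regulators such as TFEB, was found in 12 windows (10.5%) and in 6.02% of all windows. The 12 genes were Slc12a9, Slc20a1, Slc25a13, Slc25a36, Slc30a5, Slc33a1, Slc35a5, Slc35e3, Slc36a1, Slc38a7, Slc39a8 and Slc41a3. Of these, Slc25a13 and Slc30a5 were higher in BMDM as deposited, Slc39a8 was higher in BSM, and the others did not pass. Such a match is a run of letters and does not show that the factor binds there.

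Among the 8 carriers of lipids, hormones and organic ions, 3 were higher in BMDM, 2 were higher in BSM and 3 did not pass, and after quantile normalization the counts were 2 and 3. For this and every group that follows, the shares of all genes tested were 42.0% and 8.70% as deposited and 20.4% and 18.4% after quantile normalization. Slco2b1 (chr7:106806314-106859850, mm9) measured 0, 0 and 0.00898 FPKM in the 3 BMDM libraries and 56.8, 54.8 and 47 in the 3 BSM libraries. Its log2 fold change, BMDM over BSM on the log2(FPKM + 1) scale used for all such values, was -5.74 (SE 0.22, adjusted p = 3.46e-06), the largest of the 114 in either direction. Its mean in BSM, 52.9 ± 5.15 FPKM, was level with that of Slc29a3, the highest. In the ALEXA-Seq table its signal was 0.0491 ± 0.0638 in BMDM and 769 ± 91.4 in BSM. Slco4a1, another organic anion carrier, measured 2.59, 0.679 and 4.81 FPKM in BMDM and 1.24, 16.8 and 11.5 in BSM. The cell types overlapped, with BSM replicate 1 far below the other BSM libraries, and Slco4a1 did not pass (adjusted p = 0.208), whereas without that library it was higher in BSM with a log2 fold change of -2.19 (adjusted p = 0.0102). By ALEXA-Seq it measured 2.56, 3.24 and 7.09 in BMDM and 11.6, 39.3 and 29.6 in BSM. With all libraries it was higher in BSM there (log2 fold change -2.33, adjusted p = 0.0196), also after quantile normalization (-3.43, adjusted p = 0.000692). Slc10a1, the bile acid carrier known from liver, was low everywhere, at 0.167, 0.623 and 0.16 FPKM in BMDM and 1.36, 1.05 and 0.697 in BSM. It was higher in BSM at an adjusted p of 0.0465, and did not pass when any 1 of 5 of the 6 libraries was left out (adjusted p from 0.0578 to 0.157).

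In the other direction Slc22a15 (chr3:101662877-101728302, mm9) measured 2.56, 4.39 and 2.75 FPKM in BMDM and 0, 0.0275 and 0.0399 in BSM (log2 fold change 2.03, adjusted p = 0.000349). Slco3a1, which carries prostaglandins and other organic anions, measured 0.959, 2.6 and 1.66 FPKM in BMDM and 0, 0 and 0.00326 in BSM (log2 fold change 1.41, adjusted p = 0.00261). The Slco genes that passed as deposited thus lay in opposite directions, Slco2b1 towards BSM and Slco3a1 towards BMDM. Slc44a2, a choline carrier-like protein and the highest solute carrier in BMDM, measured 27.6, 41.3 and 29.7 FPKM in BMDM and 22, 14.4 and 12.2 in BSM. The libraries did not overlap and the log2 fold change was 1.00 (adjusted p = 0.0222), but it was 0.22 after quantile normalization (adjusted p = 0.528) and -0.27 with the summed FPKM set equal.

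The amino acid carriers split by cell type: of 17, 5 were higher in BMDM, 3 were higher in BSM and 9 did not pass, against 2 and 7 called after quantile normalization. The 3 higher in BSM passed under both scalings and included a pair that work as 1 unit. Slc7a8 (LAT2), a light chain that exchanges neutral amino acids, measured 0.147, 0.91 and 0.117 FPKM in BMDM and 10.3, 8.87 and 7.04 in BSM (log2 fold change -2.84, adjusted p = 0.000234). Slc3a2 (CD98, 4F2hc), the heavy chain that brings such light chains to the cell surface, measured 1.48, 3.52 and 1.22 and 14.1, 6.27 and 6.08 FPKM (log2 fold change -1.65, adjusted p = 0.0111). Both were higher in each BSM library than in any BMDM library, and Slc3a2 was highest in BSM replicate 1. Of the other light chains of Slc3a2 with a row in the FPKM table, Slc7a7 measured 2.39, 5.87 and 2.76 FPKM in BMDM and 1.11, 5.16 and 4.33 in BSM and did not pass (adjusted p = 0.859), while Slc7a6, Slc7a10 and Slc7a11 were below the minimum in every library, none above 0.57 FPKM.

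Slc1a3 (GLAST), the sodium-coupled glutamate carrier best known from astrocytes, measured 0.0922, 0 and 0.00301 FPKM in BMDM and 9.51, 5.18 and 6.71 in BSM (log2 fold change -2.95, adjusted p = 0.000112). The 6 astrocyte markers summed to 0.0202 to 0.228 FPKM in BSM. Gfap was at 0 in all 6 libraries, and Aqp4 reached 0.144 FPKM at most. The part of astrocyte RNA in Slc1a3 was not tested. Higher in BMDM were Slc38a1 and Slc38a2, sodium-coupled carriers of glutamine and other small neutral amino acids, Slc16a10, the carrier of aromatic amino acids, Slc43a2, a facilitator for large neutral amino acids, and Slc1a5, the glutamine exchanger ASCT2. Slc16a10 measured 1.96, 2.42 and 2.22 FPKM in BMDM and 0.00482, 0.427 and 0.443 in BSM, and Slc43a2 measured 4.21, 5.24 and 5.01 and 0.694, 2.0 and 1.64. These were the pair that also passed after quantile normalization. Slc38a2 was the most abundant of the group in BMDM, at 18.3, 25.6 and 23.1 FPKM against 5.16, 14.3 and 13.2 in BSM, and its call rested on scaling (log2 fold change 1.07 as deposited with adjusted p = 0.044, 0.28 after quantile normalization with adjusted p = 0.563). It also did not pass without any 1 of the BMDM libraries (adjusted p from 0.0748 to 0.13). The glutamine carrier Slc38a1 measured 9.4, 13.9 and 10.8 FPKM in BMDM and 2.49, 5.0 and 4.47 in BSM, with a log2 fold change of 1.33 as deposited and 0.55 after quantile normalization. Slc6a6, the taurine carrier and the fifth highest solute carrier in BSM, measured 19.2, 17.9 and 16.4 FPKM in BMDM and 24.8, 11.6 and 10.0 in BSM. The ranges overlapped through BSM replicate 1, and without that library Slc6a6 was higher in BMDM as deposited (log2 fold change 0.67, adjusted p = 0.0138) but not after quantile normalization (-0.10, adjusted p = 0.665).

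All 5 sugar carriers were below 5 FPKM in each BMDM library. As deposited 1 was higher in BMDM, 2 were higher in BSM, and after quantile normalization none was higher in BMDM and 3 were higher in BSM. Slc2a5 (GLUT5, chr4:149493392-149518278, mm9) measured 0, 0.00361 and 0 FPKM in BMDM and 11.7, 8.47 and 6.97 in BSM (log2 fold change -3.30, SE 0.25, adjusted p = 5.28e-05). In BMDM the ALEXA-Seq signal averaged 0.0287 ± 0.0498 against 197 ± 85.4 in BSM. Slc37a2, a sugar-phosphate exchanger of the endoplasmic reticulum, measured 0.308, 0.148 and 0.0728 and 1.09, 1.13 and 1.54 FPKM (log2 fold change -0.94, adjusted p = 0.00483). Slc2a1 (GLUT1), the general glucose carrier, was the one higher in BMDM, at 3.91, 4.69 and 2.71 FPKM against 0.912, 1.94 and 1.35. The libraries did not overlap, but its log2 fold change of 0.99 became 0.33 after quantile normalization (adjusted p = 0.296). The urate carrier Slc2a9 lay at similar levels, 2.0, 1.58 and 1.75 FPKM in BMDM and 1.68, 1.81 and 2.29 in BSM, with a log2 fold change of -0.07 (adjusted p = 0.805), and was higher in BSM after quantile normalization (log2 fold change -0.70, adjusted p = 0.0345).

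**Figure D3:**
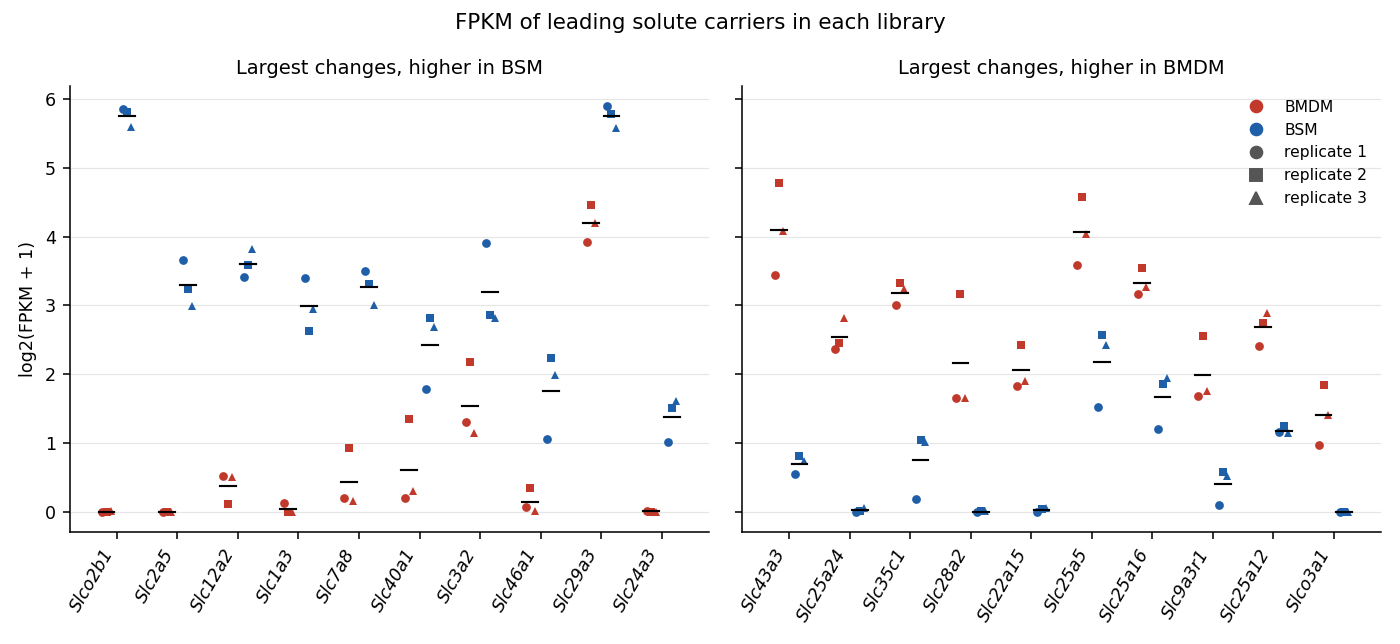
Log2(FPKM + 1) in each library for the 10 solute carriers with the largest changes in each direction among those that passed in all 4 fits without overlap (left, higher in BSM; right, higher in BMDM). Symbols give the replicate and horizontal bars the mean of 3 libraries. Slco2b1, Slc2a5 and Slc24a3 lie at or near 0 in BMDM, Slc25a24, Slc28a2, Slc22a15 and Slco3a1 at or near 0 in BSM, and Slc29a3 and Slc25a5 are present in both.

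Of 17 carriers of inorganic ions and protons, 3 were higher in BMDM, 4 were higher in BSM and 10 did not pass, and none and 6 passed after quantile normalization. Slc12a2 (NKCC1), which brings sodium, potassium and chloride into cells, measured 0.432, 0.0779 and 0.428 FPKM in BMDM and 9.67, 11 and 13.1 in BSM (log2 fold change -3.22, adjusted p = 5.54e-05). Both carriers of sodium against calcium that passed in this direction were higher in every BSM library than in any BMDM library. Slc24a3 (NCKX3) measured 0.0135, 0 and 0 FPKM in BMDM and 1.02, 1.85 and 2.06 in BSM (log2 fold change -1.37, adjusted p = 0.00153). Slc8a1 (NCX1) measured 4.35, 6.31 and 4.79 and 10.3, 9.63 and 9.31 FPKM (log2 fold change -0.82, adjusted p = 0.0204). Slc9a9, a sodium-proton exchanger of endosomes, was the highest of the group in BSM, at 12.1, 15.5 and 15.2 FPKM against 6.05, 4.6 and 4.7 in BMDM (log2 fold change -1.32, adjusted p = 0.00267).

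Slc4a1 (band 3), the chloride-bicarbonate exchanger of red cells, measured 1.78, 10.7 and 0.576 FPKM in BMDM and 0, 0.00493 and 0 in BSM (log2 fold change 1.89, adjusted p = 0.0399). BMDM replicate 2 held most of this signal. The 6 erythroid markers summed to 6.81, 38.8 and 6.92 FPKM in BMDM replicates 1, 2 and 3, with Hba-a1 at 3.80, 21.6 and 3.08 FPKM, and to 0.00511 to 0.171 in BSM. Without BMDM replicate 2 Slc4a1 still passed (adjusted p = 0.0202), and without any 1 of the other libraries but BMDM replicate 3 it did not (adjusted p from 0.0676 to 0.0752). The part of red cell RNA in this value was not tested, and in pooled samples such as these fewer cells of a type and less RNA per cell cannot be told apart. Slc24a6, the sodium-calcium exchanger of mitochondria, measured 1.78, 4.63 and 2.53 FPKM in BMDM and 0.986, 0.443 and 0.381 in BSM (log2 fold change 1.27 as deposited, 0.63 after quantile normalization with adjusted p = 0.173).

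Of the 21 metal carriers, 3 were higher in BMDM (14.3%, against 42.0% of all genes tested), 3 were higher in BSM (14.3%, against 8.70%) and 15 did not pass, and none and 4 passed after quantile normalization. Slc40a1 (ferroportin), the cellular iron exporter, measured 0.145, 1.55 and 0.23 FPKM in BMDM and 2.45, 6.01 and 5.46 in BSM (log2 fold change -1.82, adjusted p = 0.0078). The lowest BSM library, replicate 1, and the highest BMDM library, replicate 2, were the closest to each other. Slc39a8 (ZIP8), which takes up zinc, manganese and iron, measured 0.288, 0.548 and 0.554 and 2.76, 2.24 and 2.25 FPKM (log2 fold change -1.22, adjusted p = 0.00243). Slc30a4 (ZnT4), which moves zinc into vesicles, measured 0.050, 0.29 and 0.156 and 0.633, 2.25 and 1.94 FPKM (log2 fold change -1.10, adjusted p = 0.0143). The carriers that move iron out of phagosomes and endosomes did not pass as deposited. Slc11a1 (NRAMP1) measured 1.98, 2.96 and 1.46 FPKM in BMDM and 0.302, 3.91 and 3.34 in BSM (adjusted p = 0.974), and Slc11a2 (DMT1) measured 0.875, 0.869 and 1.17 and 0.717, 1.92 and 5.2 (adjusted p = 0.228). Both were lowest in BSM replicate 1 among the BSM libraries, and without it Slc11a2 was higher in BSM (log2 fold change -1.11, adjusted p = 0.0257). After quantile normalization Slc11a2 was higher in BSM with all libraries (log2 fold change -1.37, adjusted p = 0.0287), and both were higher in BSM in the ALEXA-Seq table after it (adjusted p = 0.0218 for Slc11a1 and 0.00238 for Slc11a2).

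The 3 metal carriers higher in BMDM were Slc30a5 and Slc30a1, which export zinc from the cytosol, and Slc31a1 (CTR1), the copper importer. Slc31a1 measured 10.0, 8.97 and 11.4 FPKM in BMDM and 3.2, 6.98 and 5.37 in BSM (log2 fold change 0.89, adjusted p = 0.0353), and its relative Slc31a2 measured 9.2, 13.8 and 9.02 and 8.67, 5.68 and 4.74 (adjusted p = 0.0866). Slc30a5 measured 3.89, 3.39 and 6.05 and 1.18, 2.06 and 2.55 FPKM, and Slc30a1 measured 2.48, 2.14 and 2.89 and 1.27, 1.2 and 1.03. The libraries of the cell types did not overlap for these 4 copper and zinc carriers, yet none passed after quantile normalization, where their log2 fold changes lay between -0.05 and 0.19. Slc41a1, a magnesium carrier, was set by 1 library: BSM replicate 1 measured 14.3 FPKM, against 1.39 and 1.08 in the other BSM libraries and 2.05, 1.07 and 2.33 in BMDM.

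The 3 carriers of vitamins and cofactors all passed as deposited. Slc46a1, the proton-coupled folate carrier, measured 0.046, 0.277 and 0.00651 FPKM in BMDM and 1.08, 3.71 and 2.97 in BSM (log2 fold change -1.62, adjusted p = 0.00467). Slc23a2 (SVCT2), the sodium-coupled carrier of vitamin C, measured 2.6, 2.36 and 2.12 and 6.41, 5.91 and 5.93 FPKM (log2 fold change -1.08, adjusted p = 0.00511). The libraries of each cell type lay close together for Slc23a2, with an SD of 0.239 FPKM in BMDM and 0.284 in BSM. Slc48a1, which carries heme out of lysosomes, was higher in BMDM as deposited, at 1.09, 1.03 and 0.478 FPKM against 0, 0.0278 and 0.0119, and did not pass after quantile normalization (adjusted p = 0.0577). In the ALEXA-Seq table its single entry was at 0 in all 3 BMDM libraries and at 0, 0 and 0.0442 in BSM, too low to be tested. Its locus overlaps that of Hdac7, so reads could not be divided with certainty, and it was among the 3 genes just inside the minimum.

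The nucleoside and nucleobase carriers held the largest difference towards BMDM and 1 of the largest levels in BSM. Slc43a3, a purine nucleobase carrier (chr2:84776736-84798666, mm9), measured 9.85, 26.5 and 15.8 FPKM in BMDM and 0.461, 0.747 and 0.668 in BSM (log2 fold change 3.40, SE 0.35, adjusted p = 0.00022). The lowest BMDM library, replicate 1, stood far above every BSM library. Slc28a2 (CNT2), a sodium-coupled purine nucleoside carrier, measured 2.15, 7.97 and 2.14 and 0, 0.00438 and 0.00732 FPKM (log2 fold change 2.15, adjusted p = 0.00364). Its value is uncertain, because 99.8% of its longest transcript has a near-identical copy in the neighbouring paralog Gm14085. Slc29a3 (ENT3), the nucleoside carrier of lysosomes, was abundant in both cell types, at 14.1, 21 and 17.3 FPKM in BMDM and 58.4, 53.9 and 46.8 in BSM. Its mean was 17.5 ± 3.43 FPKM in BMDM and 53 ± 5.83 in BSM, 3.04 times as high, with a log2 fold change of -1.56 (adjusted p = 0.0013). All 3 passed under both scalings and in both tables. BMDM replicate 2 was the highest BMDM library for all 3.

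Of the 18 mitochondrial carriers, 9 were higher in BMDM (50.0%, against 42.0% of all genes tested), none was higher in BSM and 9 did not pass. After quantile normalization 4 were higher in BMDM (22.2%, against 20.4%) and 2 in BSM (Slc25a36 and Slc25a37), so the share towards BMDM was near that of all genes under both scalings. The median log2 fold change of the group was 0.91 as deposited, 0.19 after quantile normalization and -0.16 with the summed FPKM set equal, against 0.66, -0.02 and -0.23 for all genes tested. Slc25a24 (chr3:108926067-108971375, mm9) measured 4.14, 4.45 and 6.02 FPKM in BMDM and 0, 0.0108 and 0.0398 in BSM (log2 fold change 2.52, adjusted p = 0.000107). Slc25a4 and Slc25a5, the adenine nucleotide translocases that exchange ADP for ATP, were both higher in BMDM as deposited. Slc25a4 measured 22.9, 21.9 and 26.2 FPKM in BMDM and 5.81, 8.93 and 9.56 in BSM (log2 fold change 1.46, 0.67 after quantile normalization with adjusted p = 0.0641). Slc25a5 measured 11.1, 22.8 and 15.4 and 1.87, 4.91 and 4.38 FPKM (log2 fold change 1.89, 1.11 after quantile normalization with adjusted p = 0.0254), though copies in processed pseudogenes cover 72.3% of its longest transcript.

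The aspartate-glutamate carrier Slc25a12, which feeds the malate-aspartate shuttle, measured 4.33, 5.71 and 6.44 FPKM in BMDM and 1.23, 1.37 and 1.21 in BSM, and Slc25a16, a carrier linked to coenzyme A, measured 7.99, 10.6 and 8.62 and 1.3, 2.64 and 2.84. With Slc25a24 and Slc25a5, these were the 4 mitochondrial carriers that passed in all 4 fits. Slc25a3, the phosphate carrier for ATP synthesis, measured 10.5, 17.3 and 13.7 FPKM in BMDM and 10.4, 5.43 and 5.03 in BSM. All BSM libraries were below all BMDM libraries, but its log2 fold change of 0.93 became 0.21 after quantile normalization and -0.26 with the summed FPKM set equal. In the other direction Slc25a37 (mitoferrin 1), the mitochondrial iron importer, measured 4.94, 12.3 and 5.76 FPKM in BMDM and 17, 9.68 and 13.9 in BSM. It did not pass as deposited (log2 fold change -0.81, adjusted p = 0.0983) and was higher in BSM after quantile normalization (log2 fold change -1.55, adjusted p = 0.00815). It is highly expressed in erythroid precursors. Its highest BMDM value lay in BMDM replicate 2, the library with the highest erythroid marker sum. That library was the highest BMDM library for 62 of the 114 solute carriers. The part of erythroid RNA in Slc25a37 was not tested.

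Of the 14 carriers of the Slc35 and Slc33 families, which supply the Golgi and endoplasmic reticulum, 4 were higher in BMDM (28.6%), none in BSM, and 10 did not pass, and 2 and 1 (Slc35e3) passed after quantile normalization. The means of 13 of 14 were higher in BMDM as deposited, as were those of 6394 of all 8467 genes, and after quantile normalization 5 of 14 and 4173 of 8467 had a positive log2 fold change. Slc35c1, which carries GDP-fucose into the Golgi and is needed for the fucosylated ligands of selectins, measured 7.01, 8.99 and 8.43 FPKM in BMDM and 0.136, 1.07 and 1.02 in BSM. Its log2 fold change of 2.44 (adjusted p = 0.00053) was 1.75 after quantile normalization (adjusted p = 0.000354). Slc35a2, the carrier of UDP-galactose, measured 2.37, 3.95 and 3.63 and 0.255, 1.06 and 1.09 FPKM and also passed under both scalings of FPKM (log2 fold changes 1.28 and 0.62). By ALEXA-Seq it did not pass (log2 fold change 1.17, adjusted p = 0.157), nor there after quantile normalization (0.28, adjusted p = 0.626). Slc35a4 measured 2.28, 4.04 and 3.53 FPKM in BMDM and 0.103, 1.53 and 1.26 in BSM and passed as deposited alone. In BSM replicate 1 both Slc35c1 and Slc35a4 had their lowest values of the 6 libraries. Slc35b4, which carries UDP-sugars, was high in both cell types, at 6.53, 12.1 and 5.76 FPKM in BMDM and 4.04, 7.42 and 5.86 in BSM, and did not pass (adjusted p = 0.351).

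None of the 3 peptide and lysosomal export carriers passed as deposited. Slc15a3, a lysosomal carrier of histidine and small peptides and the third highest solute carrier in BSM, measured 4.96, 14.6 and 5.04 FPKM in BMDM and 28.3, 18.4 and 9.04 in BSM. The BSM libraries spread widely and BMDM replicate 2 lay within their range. The log2 fold change of -1.11 did not pass (adjusted p = 0.0983), whereas it was -1.85 after quantile normalization (adjusted p = 0.018). Its relative Slc15a4 lay the other way, at 8.23, 8.41 and 6.88 FPKM in BMDM and 2.18, 5.11 and 5.16 in BSM without overlap (log2 fold change 0.84, adjusted p = 0.0557). Slc46a3, another lysosomal carrier, measured 1.51, 1.8 and 1.67 and 0.271, 2.99 and 2.62 FPKM (adjusted p = 0.988). Of the 2 carboxylate carriers, Slc16a6 (MCT7) was higher in BSM under both scalings, at 2.14, 4.12 and 4.62 FPKM against 0.761, 1.02 and 1.21 (log2 fold change -1.17 as deposited, adjusted p = 0.0117). Slc16a7 (MCT2), which carries pyruvate and lactate, measured 4.26, 4.58 and 5.15 FPKM in BMDM and 1.65, 4.25 and 5.03 in BSM (adjusted p = 0.395).

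Of the 114 genes 3 bear a carrier's name without being carriers. Slc9a3r1 (NHERF1), a scaffold that anchors sodium-proton exchangers, was higher in BMDM under both scalings, at 2.2, 4.88 and 2.36 FPKM against 0.0727, 0.498 and 0.431 in BSM (log2 fold change 1.59, adjusted p = 0.0036). Slc4a1ap measured 8.06, 9.63 and 8.13 FPKM in BMDM and 4.4, 6.01 and 6.36 in BSM (adjusted p = 0.0845), and Slc7a6os measured 2.65, 2.61 and 3.11 and 1.38, 2.43 and 3.44 (adjusted p = 0.601).

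**Figure D4:**
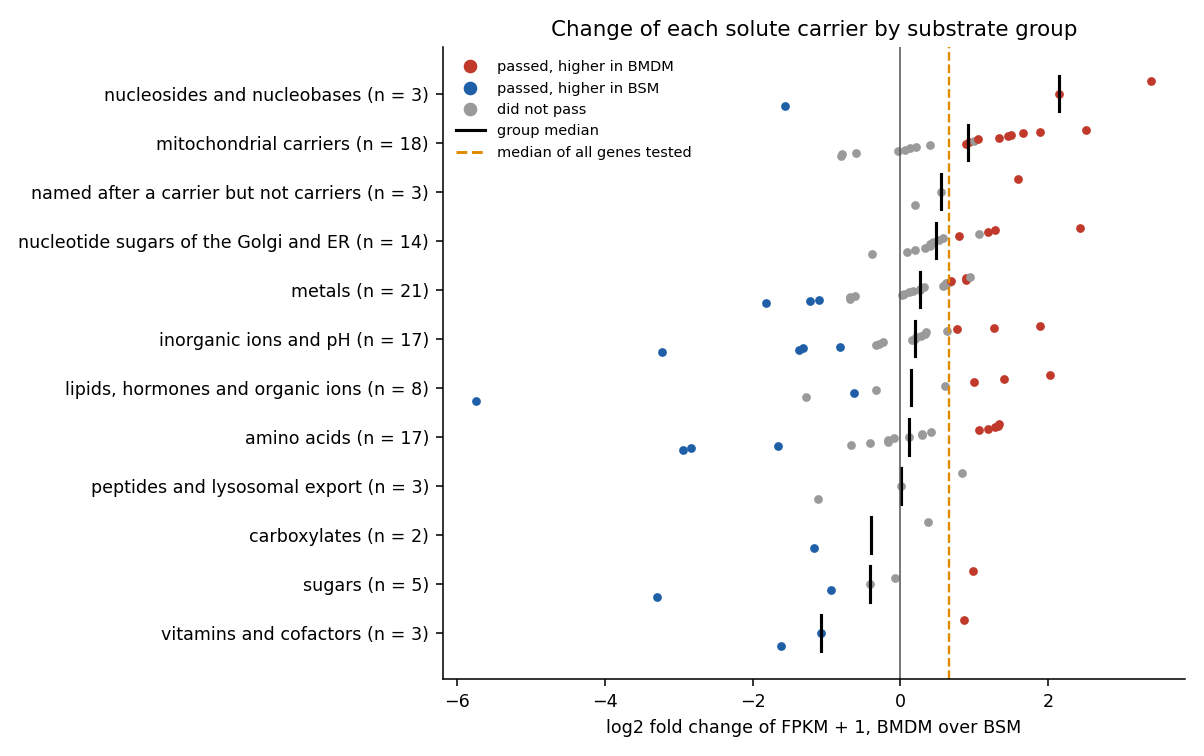
Log2 fold change of FPKM + 1 as deposited, BMDM over BSM, of each solute carrier by substrate group, with colours for the limma result, black bars for the group median and the dashed line for the median of all genes tested, 0.66. Mitochondrial carriers (median 0.91) lie to the right of that line, amino acid carriers (0.11) and inorganic ion carriers (0.20) spread to both sides of 0, and the carriers of vitamins and cofactors (-1.08) lie mostly to the left.

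BSM replicate 1 and BMDM replicate 2 carried most of the spread within groups. BSM replicate 1 was the lowest of the 6 libraries for 58 solute carriers and the highest for 25. Of the 87 with a mean of at least 1 FPKM in the other BSM libraries, 23 were at least 3 times lower than that mean in replicate 1, among them Slco4a1 and Slc11a1. Over all 114, whatever their mean, 37 were at least 3 times lower there and 6 at least 3 times as high by FPKM, among the latter Slc41a1, Slc25a38, Slc25a45, Slc20a1 and Slc38a10. The ALEXA-Seq signal of Slc25a45 was level instead, at 34.9 in BSM replicate 1 against 35.5 and 31.4 in replicates 2 and 3. Slc20a1 (46.8 against 27.5 and 20.9) and Slc38a10 were raised less there than in FPKM. Slc41a1 and Slc25a38 stood far above the other BSM libraries in both tables. Of the 18 carriers higher in BSM, 17 passed without BSM replicate 1 (the exception was Slc10a1), and of the 32 higher in BMDM 30 did (the exceptions were Slc4a1 and Slc30a5). Of the 50 carriers that passed, 34 passed whichever 1 of the 6 libraries was left out. Among the other 16, Slc10a1, Slc25a3 and Slc30a5 did not pass without any 1 of 5 libraries, Slc30a1, Slc31a1, Slc44a2, Slc4a1 and Slc8a1 without any 1 of 4, and Slc2a1 and Slc38a2 without any 1 of 3. Slc25a46, Slc30a4, Slc35a4 and Slc35e1 did not pass without either of 2 libraries, and Slc3a2 without BMDM replicate 3 (adjusted p = 0.0512). BMDM replicate 2 was the highest BMDM library for 62 solute carriers, and in 6 with at least 1 FPKM it reached 3 times the mean of the others: Slc4a1, Slc40a1, Slc45a4, Slc4a2, Slc35c2 and Slc28a2. By ALEXA-Seq, Slc45a4 was instead lowest in BMDM replicate 2, at 0.586, 0.242 and 0.495, while the rest of these were highest in it there too. The 7 granulocyte markers summed to 48.4, 341 and 88.8 FPKM in BMDM replicates 1, 2 and 3 and to 0 to 0.0714 in BSM, with Ly6g, against which the cells were sorted, at 0, 0.293 and 0. Their part in these values was not tested. Without BMDM replicate 2, 24 of the 32 carriers higher in BMDM and all 18 higher in BSM passed.

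**Figure D5:**
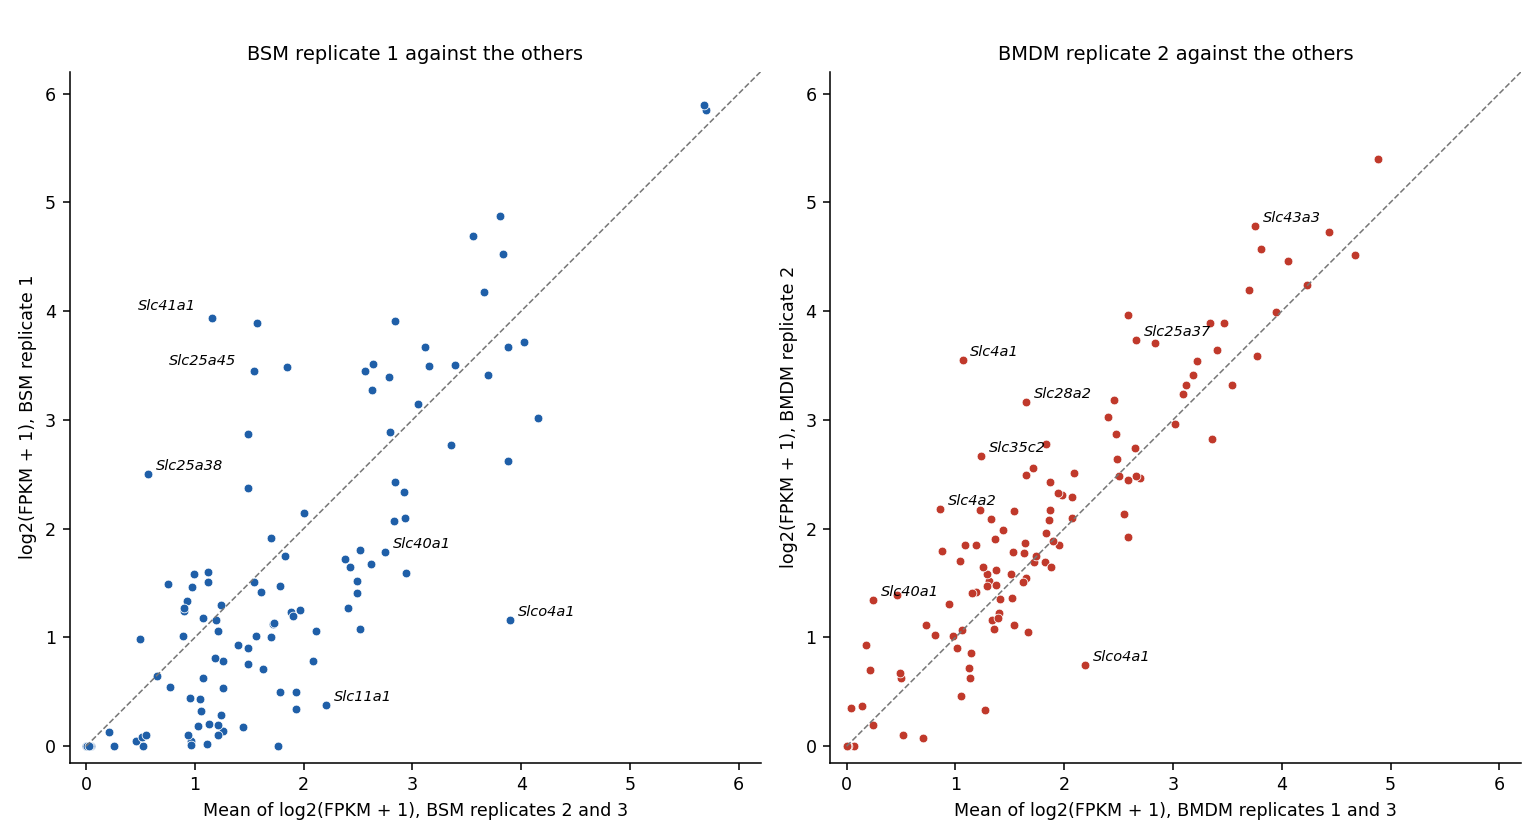
Log2(FPKM + 1) of each of the 114 solute carriers in BSM replicate 1 against the mean of BSM replicates 2 and 3 (left), and in BMDM replicate 2 against the mean of BMDM replicates 1 and 3 (right), with equal values dashed. In BSM replicate 1 many carriers lie well below the line while Slc41a1, Slc25a45 and Slc25a38 lie well above it, and in BMDM replicate 2 Slc4a1, Slc28a2 and Slc40a1 lie above it. The excess of Slc25a45 was not seen in the ALEXA-Seq values.

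Other transport genes were examined as lists set by function rather than by how they moved. Among the sodium pump subunits, which build the gradient that many solute carriers use, 4 of 4 tested were higher in BMDM, and 2 after quantile normalization, against the 42.0% and 20.4% of all genes that also stand beside the lists below. The regulatory subunit Fxyd5 measured 45.5, 51.4 and 51.6 FPKM in BMDM and 0.0469, 1.93 and 1.02 in BSM (log2 fold change 4.78, adjusted p = 5.77e-05). The most abundant subunit, Atp1b3, measured 75.1, 93 and 102 FPKM in BMDM and 25.8, 39.6 and 40.3 in BSM and passed as deposited alone. Of 6 partner proteins of carriers tested, 3 were higher in BMDM and none in BSM, and 1 and none after quantile normalization. Emb (embigin), a chaperone of monocarboxylate carriers, measured 56.2, 82.9 and 71.1 FPKM in BMDM and 0, 0.0504 and 0.0989 in BSM (log2 fold change 6.06, adjusted p = 3.89e-06). Its relatives Bsg (basigin), at 2.08, 5.4 and 3.14 and 3.42, 3.05 and 2.41 FPKM, and Nptn (neuroplastin), at 22.9, 22.7 and 29.2 and 8.76, 24.8 and 27.5, did not pass (adjusted p = 0.736 and 0.428).

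Of 16 carriers that belong to the solute carrier series under other names, 5 were higher in BMDM and 1 in BSM, and 2 and 2 after quantile normalization. Ucp2, a mitochondrial carrier of the Slc25 family, was the most abundant at 79.9, 115 and 102 FPKM in BMDM and 31.6, 53.1 and 49.3 in BSM (log2 fold change 1.15 as deposited, 0.38 after quantile normalization). Brp44, a subunit of the mitochondrial pyruvate carrier, measured 7.66, 12.9 and 9.24 and 0.78, 1.78 and 2.43 FPKM, and Tmem165 of the Golgi measured 53.7, 62.7 and 57.4 and 4.33, 10.3 and 12.2. Both were higher in BMDM under both scalings, and Spns2, the sphingosine-1-phosphate exporter, was higher in BSM, at 1.09, 1.45 and 1.33 FPKM against 0.0095, 0 and 0.00462. The 16 ABC transporters tested, which use ATP in place of gradients, split into 5 in each direction, and into 2 higher in BMDM and 7 in BSM after quantile normalization. Abca1, the cholesterol exporter, measured 0.246, 0.19 and 0.335 FPKM in BMDM and 3.21, 4.98 and 5.84 in BSM (log2 fold change -2.15, adjusted p = 0.000436), and Abca9, the most abundant, measured 27, 27.3 and 26.9 and 80.8, 108 and 110 (log2 fold change -1.83, adjusted p = 0.000415). The multidrug resistance proteins Abcc4, at 3.6, 4.89 and 4.96 FPKM in BMDM and 0.0755, 0.362 and 0.419 in BSM, and Abcc3, at 0.577, 0.22 and 0.699 and 4.78, 4.94 and 5.0, lay in opposite directions and passed under both scalings. Of 8 metal pumps and stores tested, 3 were higher in BMDM and none in BSM, and 1, Atox1, after quantile normalization. The ferritin heavy chain Fth1, at 88.8, 131 and 123 FPKM in BMDM and 70.8, 99.8 and 105 in BSM, did not pass (adjusted p = 0.341), while Tfrc, the transferrin receptor, measured 3.23, 10.0 and 4.62 and 2.92, 1.75 and 1.15 and passed as deposited (adjusted p = 0.0431), again highest in BMDM replicate 2.

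At the edge of the minimum, the second-highest FPKM was 1.01 for Slc35e3 and for Slc35b3 and 1.03 for Slc48a1 just inside, and 0.988 for Slc25a14, 0.967 for Slc17a5 and 0.966 for Slc5a6 just outside. Besides Slc28a2 and Slc25a5, near-identical sequence in other genes covered at least 50% of the longest transcript of members such as Slc38a6, Slc39a7 and Slc24a5, and their values are uncertain in the same way. The loci of 39 solute carriers overlap the locus of another gene in the deposited table, and the sources used here do not say that strand was used in counting. With 3 libraries a group, an exact two-sided permutation test of a single gene cannot go below p = 0.1, so the adjusted p-values rest on the model across all genes.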

How the data were processed

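RNA from FACS-sorted BMDM and BSM was amplified with the Ovation RNA-Seq method and sequenced on Illumina instruments (3 libraries per cell type). Per the submitters' processing notes, the authors used CASAVA 1.7.0, TopHat 1.3.1, Bowtie 0.12.7 and Cufflinks 1.0.3 with the mm9 build, and the deposited FPKM values are scaled for exon length and mapped reads, with ribosomal reads removed. The authors also deposited an ALEXA-Seq expression signal of the same libraries, whose unit is not given in the sources used here. Neither table holds read counts, so the depth behind a value is unknown. Starts in the FPKM table were read as counted from 0, since 8257 of 18909 genes then have the span of their GENCODE M21 gene, against 300 otherwise, and positions are printed counted from 1. The ALEXA-Seq entries were matched by symbol (112 of 114 had a single entry). Slc22a15 and Slc38a9 had several, and Slc22a15 was tested through the one of them among the highest entries, Slc38a9 not at all.

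Log2(FPKM + 1) was compared with limma 3.58.1 in R 4.3.3 (trended moderation, no covariates) for the 8467 genes that reached 1 FPKM in 2 or more libraries, with Benjamini-Hochberg adjustment over all of them and a threshold of 0.05. The 8467 highest ALEXA-Seq entries were tested in the same way. The script was tested on simulated data made from these genes, with 200 of 8467 changed. Of the 200, 0 passed at a log2 fold change of 1, 142 at 2 and 197 at 4. In the data themselves 3559 genes passed as higher in BMDM and 737 in BSM, so the simulated setting differs from the data. Alternatives were pseudocount, minimum, scaling, moderation, block, table and libraries. Near-identical copies came from blastn 2.17.0 on GENCODE M21 transcripts (at least 100 bases at 95% identity). Promoter windows are from RefSeq (GRCm38.p6). Tables used Python 3.11.15 and pandas 2.3.3, and plots matplotlib 3.10.9.

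The solute carriers, their substrate groups and the other lists were chosen with earlier results of these data known. By rule, the text names in each substrate group the 3 members with the highest mean and the 3 largest changes in each direction, over all members the 10 highest in each cell type and the 10 largest changes in each direction that held in both tables and scalings, and those next to the minimum. Of the other lists it names the highest levels and largest changes. Other genes named were chosen after their values were seen, and some genes that the rule names are not reported here. The replicates are labelled as biological, each a pool of mice, and p-values measure the spread between these pools.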

Additional observations from a re-analysis of the deposited data

How the results depend on the processing

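The solute carriers higher in BMDM numbered 32 and those higher in BSM 18 in the comparison as reported. With quantile normalization they numbered 13 and 31, with upper quartile scaling 15 and 28, with the same summed FPKM in every library 9 and 32, with the ALEXA-Seq values 20 and 19, and with the ALEXA-Seq values after quantile normalization 13 and 34. Quantile normalization without BSM replicate 1, chosen after seeing the data, gave 16 and 44. The counts here, with upper quartile scaling, the same summed FPKM and ALEXA-Seq after quantile normalization have no share of all genes to stand beside. They do not show a shift particular to solute carriers. Across the 8467 genes, log2 fold changes had medians of 0.66 as reported, 0.07 with upper quartile scaling and -0.23 with the same summed FPKM. Those of the solute carriers had medians of 0.29, -0.32 and -0.60 in the same order. Leaving out 1 library at a time gave 22 to 35 higher in BMDM and 14 to 23 higher in BSM. A pseudocount of 0.1, the study's minimum of 3 FPKM in 1 library, no minimum, moderation without the trend and zeros treated as missing kept both counts within 1.5 times. With the replicate block the counts were 32 and 17, and 4 of the 50 calls did not hold: Slc10a1 (adjusted p = 0.0552), Slc25a3 (0.0758), Slc30a1 (0.0555) and Slc31a1 (0.0501). Same-numbered libraries did not deviate together (correlations -0.05, -0.02 and 0.14), and beside sex, male for replicate 1 and female for replicates 2 and 3 in both cell types, the labels link no same-numbered libraries.

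Of the 50 carriers that passed, 19 did not pass after quantile normalization, and none of these changed direction. With the same summed FPKM the log2 fold change turned negative for Slc25a3 (-0.26), Slc25a46 (-0.11), Slc30a1 (-0.14), Slc30a5 (-0.071), Slc31a1 (-0.26), Slc38a2 (-0.16) and Slc44a2 (-0.27). It was -0.0099 for Slc25a3 with ALEXA-Seq values after quantile normalization, and -0.12 for Slc31a1 and -0.13 for Slc38a2 with quantile normalization and without BSM replicate 1. The cause was not tested. A carrier that did not pass is not shown to be equal in the cell types, and values near 0 FPKM cannot be given a limit without read counts.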
